A study of Nannochloropsis oceanica strain IMET1 with 6 samples.

Results

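The local cis-interactions of *Nannochloropsis oceanica*, between bins 4 to 10 kb apart on the same chromosome, made up 2948 of the 10446 entries in the 3 lists of significant cis-interactions from this Hi-C experiment. They were chosen by distance alone, as every listed pair of 1-kb bins whose middles lie at least 4 and at most 10 kb apart, with no measured value in the rule. There were 1438 such interactions of 4456 in the nitrogen-replete (NR) group C0, 126 of 948 after 1 day of nitrogen deprivation (ND) in group N1, and 1384 of 5042 after 2 days in group N2. Since some were listed in more than 1 group, these were 2426 distinct bin pairs of 8318.

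The cells were of *N. oceanica* IMET1, a unicellular marine alga that stores triacylglycerol when nitrogen runs out. Cells of all groups were first grown in NR modified f/2 medium to the logarithmic phase; C0 was taken then, and N1 and N2 were washed and moved to nitrogen-free f/2 medium for 1 and 2 days. By the study's methods, the continuous light was weaker after the transfer than before C0 was taken. No culture kept in NR medium for those days was used here, so the time after the transfer, the weaker light and ND cannot be told apart. Each group had 2 Hi-C libraries, which are pooled in its list, so each group gives 1 value and no test between groups could be run. The intervals below are exact 95% Poisson or binomial intervals that cover counting error only and leave out the spread between cultures.

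Hi-C joins pieces of DNA that lie close together in the nucleus, and each sequenced junction counts as a contact between the bins that hold its ends. Chromatin is a flexible fibre, so neighbouring loci meet often and contacts fall with distance along the chromosome. In a compact genome, loci a few kb apart belong to the same gene or to close neighbours, and a significant interaction at this scale is a bin pair with more contacts than others at its distance, such as the base of a small loop or the inside of a small domain. Fit-Hi-C, which made the lists, compares each count with an expected count set by the distance and by a bias factor for each bin, a number that is 1 for an average bin and higher for one that gives more read pairs everywhere. Only bin pairs below a q-value of 0.01 are listed, so a pair absent from a list is not shown to lack contacts. No nuclear gene annotation in these coordinates was used here, and bins are named by chromosome and first base in version V2 of the IMET1 genome.

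N1 was the shallowest group and had the fewest interactions, while N2 was shallower than C0 and had the longer cis list. The contacts in the interactions at 4 to 10 kb summed to 68928, 2885 and 60099 in C0, N1 and N2. The expected count of an average bin pair 4 kb apart was 18.9 contacts for C0, 7.58 for N1 and 11.1 for N2, so that a pair of average bins needed 46, 28 and 33 contacts to be listed. In C0, N1 and N2 this asked for 2.43, 3.70 and 2.98 times the expected count at 4 kb, and for 3.34, 5.80 and 4.30 times at 10 kb. With the counts of C0 and N2 scaled to the expected counts of N1 and called by its threshold, 41 interactions remained at C0 and 536 at N2, against the 126 of N1. This scaling works on the listed pairs only, makes no new calls and adds no counting error, whereas the N1 list was called from counts with that error, so it is not a comparison of the groups at equal depth.

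Interactions at 4 to 10 kb took up 32.3% of the cis list at C0 (30.9% to 33.7%). Their share was 13.3% at N1 (11.2% to 15.6%), and 27.4% (26.2% to 28.7%) of the N2 list. At N1 most cis-interactions were shorter, with 779 of 948 at 2 to 3 kb, and at N2 more were longer, with 1256 at 11 to 100 kb against 571 at C0. Listed interactions were far denser at 4 to 10 kb than over the cis bin pairs as a whole, and denser still at 2 and 3 kb. At 2 kb 4.80%, 2.28% and 5.55% of possible pairs were listed in C0, N1 and N2, and at 3 kb 1.75%, 0.251% and 1.62%. Of 214312 possible bin pairs at 4 to 10 kb, 0.671% were listed at C0, 0.0588% at N1 and 0.646% at N2, against 0.0253%, 0.00539% and 0.0287% of all possible cis bin pairs at least 2 kb apart. These percentages are the background rates for the counts of listed interactions. Possible pairs count every bin between the first and the last listed position of a chromosome. All listed bins had bias factors between 0.50 and 2.00, and how many bins could be listed in each group is not known.

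Within the range, numbers were highest at 4 kb in every group, and N2 lay below C0 at 4 and 5 kb and above it from 6 to 10 kb. At 4 kb C0 had 392 interactions (354 to 433), N1 had 45 (32.8 to 60.2) and N2 had 346 (310 to 384). At 5 kb there were 320, 30 and 265, and at 6 kb there were 195, 15 and 206. At 10 kb C0 had 102 left (83.2 to 124), N1 had 4 (1.09 to 10.2) and N2 had 122 (101 to 146). The intervals of C0 and N2 overlapped at each of these distances. Pairs at 4 and 5 kb were 712 of the 1438 at C0, 75 of the 126 at N1 and 611 of the 1384 at N2. Just outside the range, 539, 77 and 498 interactions were listed at 3 kb and 73, 4 and 100 at 11 kb. The expected count was the same at 2 and 3 kb, 22.6 contacts for an average pair at C0, and began to fall only at 4 kb, so the lower edge of the range is also where the deposited expectation starts to depend on distance.

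**Figure D1:**
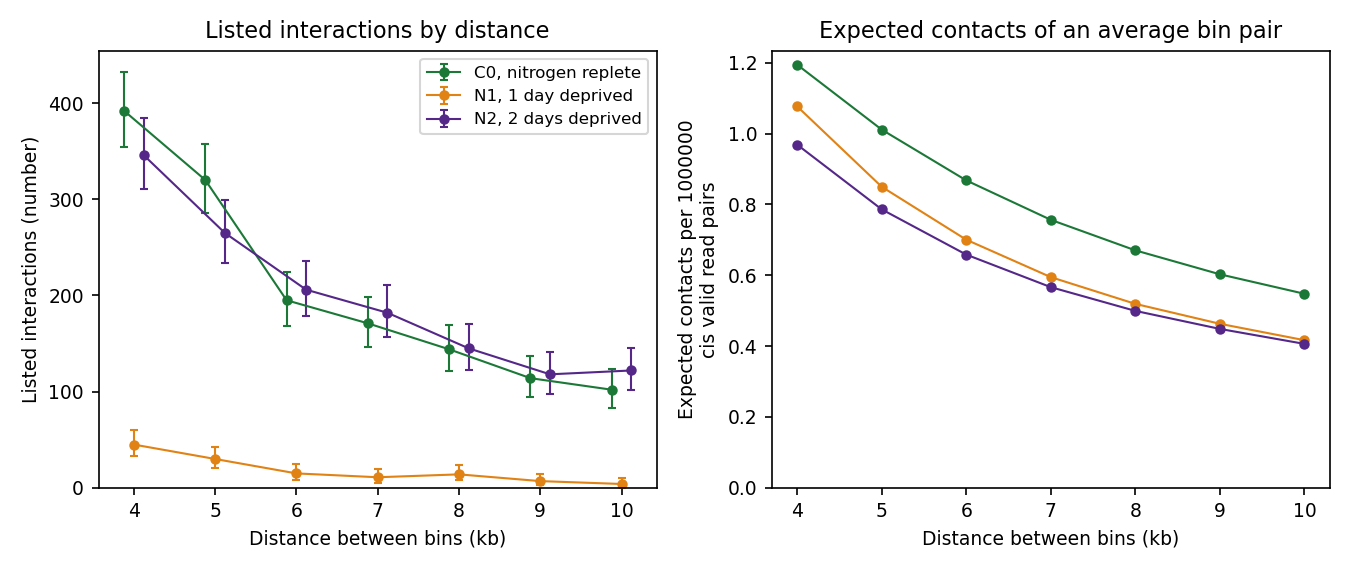
Left, number of listed interactions at each distance from 4 to 10 kb (kb), with exact 95% Poisson intervals, for C0, N1 and N2. Right, expected contacts of a pair of average bins per 1000000 cis valid read pairs of the group. C0 fell from 392 to 102 interactions and N2 from 346 to 122, while N1 stayed between 45 and 4, and the expected line of C0 lay above those of N1 and N2 at every distance.

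The expected contacts themselves decayed less steeply at C0 than under ND. From 4 to 10 kb they fell 2.18-fold at C0, 2.58-fold at N1 and 2.38-fold at N2, which are slopes of -0.86, -1.04 and -0.95 on log scales of both axes. Scaled to 1000000 cis valid read pairs of the group, an average pair 4 kb apart was expected to have 1.19, 1.08 and 0.969 contacts in C0, N1 and N2, and one 10 kb apart 0.548, 0.417 and 0.406. The expected count at C0 was thus the highest of the 3 groups at both edges of the range once depth was set equal. No interval can be given for these values, because each comes from a fitted curve of a pooled group.

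The contacts of a listed interaction ranged from 15 to 142 at C0 with a median of 44. They ranged from 12 to 46 at N1 with a median of 22, and from 13 to 191 at N2 with a median of 39. Set against the expected count, the order was another one, with medians of 3.05, 5.58 and 3.74 times the expected count in C0, N1 and N2. The median ratio was higher at 10 kb than at 4 kb in each group, 3.43 against 2.75 in C0, 7.53 against 4.38 in N1 and 4.54 against 3.29 in N2. The listing threshold rose alongside, as given above, so these medians describe the listed pairs and not all pairs at a distance. Interactions at 2 to 3 kb had lower medians, 2.64, 4.15 and 3.23, and those at 11 to 100 kb higher ones, 4.66, 10.6 and 6.42.

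Among the pairs with the most contacts, a chain of 3 bins on chromosome 20 was listed in all groups. The bins at 485001 and 489001 had 138, 37 and 165 contacts in C0, N1 and N2, or 2.85, 4.38 and 5.02 times the expected counts. The bins at 489001 and 493001 had 134, 46 and 145 contacts, or 1.98, 3.38 and 3.44 times expected, and the 46 contacts were the highest count at N1. All 3 bins gave many read pairs, with bias factors of 1.34, 1.91 and 1.87 at C0 from the left bin to the right one. The pair with the highest count at C0, the bins at 45001 and 49001 on chromosome 14, had 142 contacts there and 38 at N1 and was not listed at N2. Scaled to depth, as contacts per 1000000 cis valid read pairs, these were 8.96 and 5.40 contacts, an N1 level 0.603 times that of C0 (0.410 to 0.868), although the ratio to expected was higher at N1, 5.60 against 2.66. The highest count at N2, 191 contacts between the bins at 893001 and 897001 on chromosome 7, compared with 83 at C0. Here the left bin had a bias factor of 0.855 at C0 and 1.78 at N2, so that the expected count was 31.5 at C0 and 35.9 at N2 in spite of the lower depth.

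High counts and high ratios to expected were found in different pairs. The highest ratio at C0 was that of the bins at 58001 and 68001 of chromosome 8, with 29 contacts against 3.70 expected, or 7.83 times (5.24 to 11.2). The same pair led at N2 with 36 contacts, 16.8 times expected (11.8 to 23.3), and was not listed at N1. At N1 the highest ratio belonged to the bins at 566001 and 572001 of chromosome 26, with 24 contacts against 1.99 expected, or 12.1 times (7.74 to 18.0). This pair had 31 contacts at C0, 4.08 times expected, and was not listed at N2. The next 4 pairs at N2 had 68 to 97 contacts, above the median of 39, and each joined a bin with a factor above 1 to a bin with a factor below 1. In the pair on chromosome 28, the factor below 1 was a value that recurs in many bins, described at the end. The intervals of single pairs are wide.

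About 1 in 3 of the interactions at C0 was found at N2 as the same bin pair, and likewise in the opposite direction. C0 and N2 shared 464 bin pairs, 32.3% of C0 (29.9% to 34.8%) and 33.5% of N2 (31.04% to 36.1%). C0 and N1 shared 43 pairs, 2.99% of C0 and 34.1% of N1 (25.9% to 43.1%), and N1 and N2 shared 41, 32.5% of N1 (24.5% to 41.5%) and 2.96% of N2. At 2 to 3 kb the shared pairs of C0 and N2 came to 47.1% and 43.0%. At 11 to 100 kb they came to 24.9% and 11.3%. Of the N1 interactions at 2 to 3 kb, 41.1% were shared with C0 and 51.7% with N2. Over all cis-interactions, C0 and N1 shared 8.37% of C0 and 39.3% of N1 (36.2% to 42.5%). N1 and N2 shared 47.7% of N1 (44.5% to 50.9%), above the share within the range, and 8.96% of N2. C0 and N2 shared 35.6% of C0 (34.2% to 37.1%) and 31.5% of N2 (30.2% to 32.8%), near the shares within the range. Within the range the share differed little by distance at C0, between 28.5% at 8 kb and 35.4% at 6 kb, and at N2 it ran from 40.8% at 5 kb to 24.6% at 10 kb. When both bins were allowed to differ by 1 bin, 39.7% of the C0 interactions had a partner at N2 and 43.4% of those of N2 one at C0. In all, 957 pairs were listed at C0 only, 68 at N1 only and 905 at N2 only, while 438 were listed at C0 and N2, 17 at C0 and N1, 15 at N1 and N2, and 26 in all 3 groups.

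Whether a shared interaction was stronger at N2 than at C0 depended on the scale. Against the expected count of each group, 454 of the 464 shared pairs were higher at N2, with a median ratio of N2 to C0 of 1.48, and for 185 the interval of the ratio lay above 1 and for 0 below it. Scaled to depth, the same 464 pairs were split, 239 higher and 225 lower at N2, with a median ratio of 1.01. On this scale 76 intervals lay above 1 and 23 below. Ratios to expected are relative to an expectation that was lower at N2 than at C0 for equal depth, and a pair had to pass the higher relative threshold of N2 to be shared. In 4 equal parts of the 464 pairs, ordered from the lowest to the highest level at C0, the median ratios on the depth scale were 1.03, 0.933, 1.04 and 1.07, and 67, 46, 62 and 64 of 116 pairs were higher at N2. Intervals above 1 numbered 12, 15, 23 and 26 and those below 1 numbered 0, 2, 8 and 13. A pair low at C0 that fell on the depth scale could go unlisted at N2 and leave this set. The few intervals below 1 in the lower parts therefore do not show that falls were rare there.

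**Figure D2:**
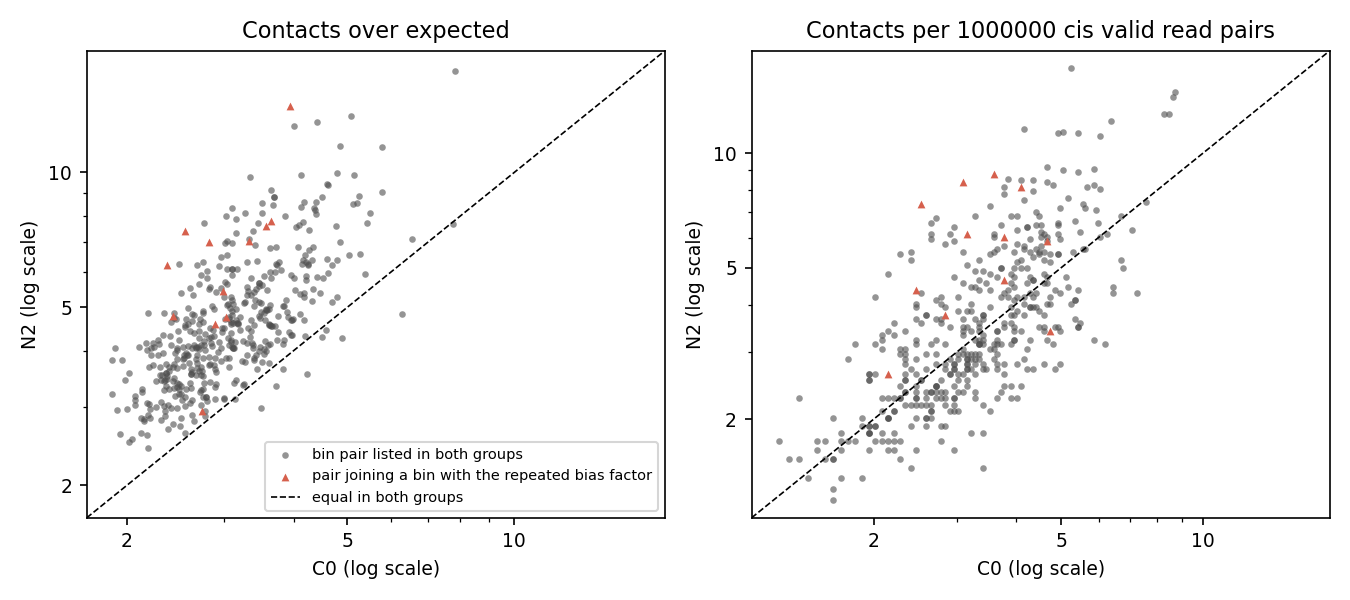
The 464 bin pairs at 4 to 10 kb listed at both C0 (x axis) and N2 (y axis), as contacts over expected (left) and contacts per 1000000 cis valid read pairs (right), all axes on log scales, with a dashed line of equal values. On the left 454 points lie above the line, and on the right 239. Triangles are the 12 pairs that join a bin carrying the bias factor repeated in many bins.

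A change of at least 2-fold was rarer. On the scale of expected counts 57 of the 464 pairs, 12.3%, were at least 2-fold higher at N2, against 9.26% of all 1588 cis pairs shared by these groups, and 0 were at least 2-fold lower, as among all cis pairs, 0%. Scaled to depth, 26 pairs (5.60%) were at least 2-fold higher and 1 (0.216%) at least 2-fold lower, against 4.79% and 0.126% of all shared cis pairs. These shares lay near those of all shared cis pairs.

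The changes of single pairs from C0 to N2 ran up to 3.57-fold against expected. This largest one, between the bins at 222001 and 230001 on chromosome 28, went from 40 contacts at C0, 3.95 times expected, to 84 at N2, 14.1 times expected. Its left bin, however, carried a bias factor that recurs unchanged in many bins of a group, as described at the end. Of pairs without such a bin, the bins at 570001 and 577001 of chromosome 8 had the largest change, from 42 to 68 contacts or 3.17-fold against expected (2.13 to 4.78) and 2.25-fold scaled to depth (1.51 to 3.38). The bins at 229001 and 238001 of chromosome 6 went from 46 to 70 contacts, 2.94-fold against expected (2.00 to 4.36) and 2.11-fold scaled to depth (1.43 to 3.13). On chromosome 8, the bins at 68001 and 72001 went from 66 to 132 contacts, 2.93-fold against expected (2.17 to 4.00) and 2.77-fold scaled to depth (2.05 to 3.79). The bin at 68001 is also part of the leading pair by ratio, and both of these named pairs were higher at N2 on both scales. Over all its partners within the range, this bin had 291 contacts with 6 bins at C0 and 324 with 7 bins at N2. The highest change on the depth scale was that of the leading N2 pair on chromosome 7, at 3.19-fold (2.45 to 4.18).

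The lowest ratio of N2 to C0 against expected was 0.769 (0.411 to 1.39), for the bins at 20001 and 27001 of chromosome 4, which had 36 contacts at C0 and 18 at N2. In this and the other 4 pairs with the lowest ratios, from 0.840 to 0.894, the interval held 1. Scaled to depth, 1 of these 5, the bins at 911001 and 915001 of chromosome 3 with 65 and 28 contacts, was at 0.597 of its level at C0 (0.369 to 0.944). The lowest ratio on the depth scale was 0.437 (0.237 to 0.765), for the bins at 76001 and 81001 of chromosome 6 with 54 contacts at C0 and 17 at N2, although their ratio to expected was 1.499 times that of C0 (0.815 to 2.63).

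For N1 the scales also pointed in opposite directions. All 43 pairs shared by C0 and N1 were higher at N1 against expected, with a median ratio of 2.02 and 32 intervals above 1. Scaled to depth, 32 of the 43 were lower at N1 and 11 higher, with a median ratio of 0.777, and 6 intervals lay below 1 and 0 above. On the expected scale 23 of the 43 (53.5%) were at least 2-fold higher, against 22.8% of all 373 shared cis pairs, and 0 were at least 2-fold lower (0% of all). Scaled to depth, 0 were at least 2-fold higher and 1 (2.33%) lower, against 0.268% and 2.68% of all. At 2 to 3 kb the median ratio was 1.65 against expected and 0.907 scaled to depth. The listing threshold against expected was highest at N1, and a shared pair had to pass it.

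From N1 to N2 the ratio to expected was lower in 29 of 41 shared pairs and higher in 12, with a median of 0.863, while scaled to depth 30 were higher and 11 lower, with a median of 1.35. Of these 41, 2 (4.88%) were at least 2-fold lower and 1 (2.44%) at least 2-fold higher against expected, where 1.33% and 0.664% of all 452 shared cis pairs were. Scaled to depth, 10 (24.4%) were at least 2-fold higher and 0 lower, against 12.8% and 0.885% of all. The 3 comparisons share their groups, so their values are not independent.

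The 26 pairs listed in all groups lay on 15 chromosomes, and 20 of them were 4 or 5 kb apart. They had a median of 68.5 contacts at C0 (34 to 138). The median was 21.5 at N1 (15 to 46), and 64 (27 to 165) for N2. Scaled to depth, the highest level of a pair was at N2 in 18 of the 26, at C0 in 6 and at N1 in 2. Against expected, the medians were 3.09, 5.36 and 4.73. The pair with the highest ratio among them at N2, the bins at 383001 and 388001 of chromosome 11, had 69, 19 and 91 contacts, or 4.85, 5.02 and 11.5 times expected. The bins at 49001 and 55001 of chromosome 6 had 70, 20 and 80 contacts, or 4.80, 9.73 and 9.997 times expected. On chromosome 23, 3 bins 5 kb apart formed a chain in every group. Those at 233001 and 238001 had 58, 20 and 64 contacts, and those at 238001 and 243001 had 56, 18 and 83. The bin at 238001 had 3 partners within the range in each group, and was the only bin with 3 at N1 besides that at 674001 of chromosome 15, which had 0 partners at C0 and N2.

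For part of the pairs listed in 1 group only, the other list bounds the count from above. Where both bins carried a bias factor in some cis-interaction of the other group, the highest count that would have remained unlisted there could be computed, a calculation added after the overlaps were seen. This was possible for 231 of the 974 pairs listed at C0 and not at N2, and 70 of these (30.3%, against 24.2% of all cis pairs) had at least 1.5 times more depth-scaled contacts at C0 than N2 allowed. In the opposite direction it was possible for 239 of 920 pairs, and 35 (14.6%, against 18.5%) had at least 1.5 times more at N2 than C0 allowed. The remaining pairs, most of those listed in 1 group, had no bound and their change is unknown. Every pair with a bound was chosen for being listed in 1 group and not in the other, which favours high counts in the listing group. The lower limits do not allow for this choice, so the shares and folds describe the chosen pairs and are no test of a change. The bins at 834001 and 839001 of chromosome 10 had 57 contacts at C0 and at most 18 at N2, at least 2.28-fold lower when scaled to depth (lower limit 1.73). The bins at 48001 and 52001 of chromosome 30 had 63 at C0 and at most 22 at N2, at least 2.07-fold lower (lower limit 1.59). The bins at 513001 and 518001 of chromosome 27 had 103 at N2 and at most 55 at C0, at least 2.60-fold higher at N2 (lower limit 2.12). Against expected, the chromosome 10 and 30 pairs had 3.48 and 3.69 times at C0. These lay below their bounds of 4.27 and 3.73 at N2, so neither pair was shown to be lower on that scale. The chromosome 27 pair had 5.43 times expected at N2, above its bound of 2.20 at C0.

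Bounds against N1 could be set for 60 of 1395 pairs listed at C0 and 77 of 1343 listed at N2. Here too, pairs were chosen for being listed in 1 group and not in the other, and the lower limits do not allow for this choice. At least 1.5 times more depth-scaled contacts than N1 allowed were seen for 22 of the 60 (36.7%, against 27.6% of all cis pairs) and for 27 of the 77 (35.1%, against 31.8%). The bins at 614001 and 621001 of chromosome 5 had 105 contacts at C0 and at most 21 at N1, at least 2.22-fold lower when scaled to depth (lower limit 1.81). The leading N2 pair on chromosome 7, with 191 contacts, had at most 31 at N1, so that N2 was at least 3.79-fold higher (lower limit 3.27). Against expected, the chromosome 5 pair had 2.66 times at C0, below its bound of 4.28 at N1, so it was not shown to be lower on that scale. The chromosome 7 pair had 5.31 times expected at N2, above its bound of 3.17 at N1. Of pairs listed at N1, 1 of 8 with a bound (12.5%, against 25% of all cis pairs) passed 1.5-fold over C0 and 4 of 13 (30.8%, against 30.3%) over N2. The pair that passed against C0, the bins at 515001 and 520001 of chromosome 3, had 18 contacts at N1 and at most 26 at C0, and the interval of its 1.56-fold difference reached down to 0.925.

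Listed local interactions were denser near chromosome ends at C0 and, less so, at N2, and no excess was detectable at N1. Of the 5460 possible pairs with both bins within 20 kb of a chromosome's first or last listed position, 151 were listed at C0, which is 2.77% (2.35% to 3.24%). At N2 60 were listed, or 1.10% (0.840% to 1.41%), and at N1 2, or 0.0366% (0.00444% to 0.132%). Farther than 100 kb from the ends the share was 0.639% at C0 (0.602% to 0.678%), 0.0576% at N1 and 0.672% at N2 (0.634% to 0.712%). These end pairs were 2.55% of the possible pairs and made up 10.5%, 1.59% and 4.34% of the interactions in C0, N1 and N2. At 2 to 3 kb the pairs within 20 kb of the ends came to 9.43%, 8.73% and 4.40% of the interactions, and at 11 to 100 kb to 2.28%, 0% and 0.478%. Pairs 20 kb or more apart cannot have both bins within 20 kb of the same end, so the values at 11 to 100 kb are low by definition. The share of possible pairs near ends is not given for these other distances. The low value at N1 was thus seen at 4 to 10 kb and not at 2 to 3 kb, although the interval at 4 to 10 kb, from 0.193% to 5.62%, rests on 2 interactions.

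**Figure D3:**
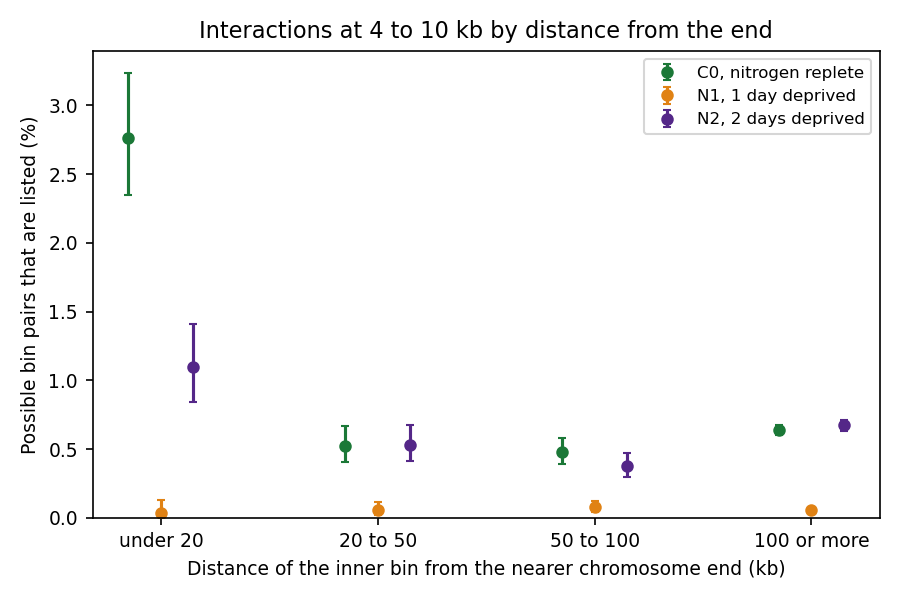
Share of possible bin pairs 4 to 10 kb apart that were listed (%), by the distance of the inner bin from the nearer chromosome end (kb), for C0, N1 and N2 with exact 95% binomial intervals. Within 20 kb of an end C0 reached 2.77% and N2 1.10%, against 0.639% and 0.672% at 100 kb or more, and N1 stayed below 0.1% in every class.

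The interactions near ends came from many chromosomes. At C0 42 ends on 26 chromosomes had at least 1, and at N2 25 ends on 20 chromosomes. The right end of chromosome 20 had 17, 0 and 5 in C0, N1 and N2. The right end of chromosome 7 had 12, 0 and 3, and the left end of chromosome 10 had 9, 0 and 0. At these 3 ends C0 held more interactions than N2, while the left end of chromosome 29 had 5 in both and that of chromosome 26 had 3 at C0 and 4 at N2. The ratio to expected was not particular at the ends, with a median of 3.05 at C0 and 3.70 at N2. Without any pair that had a bin within 20 kb of an end, 1269 interactions remained at C0 (1200 to 1341) and 1301 at N2 (1231 to 1374). The order of these groups turned, but the intervals overlapped, as did those of the full counts (1365 to 1514 and 1312 to 1459).

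Longer chromosomes tended to hold more interactions in C0 and N2, with rank correlations of number and span of 0.837 and 0.907 over 30 chromosomes, and less so in N1, with 0.310. Over the whole span of 30.8 Mb there were 46.6 interactions per Mb at C0, 4.09 at N1 and 44.9 at N2. Chromosome 20 was densest at C0 with 71.2 per Mb (54.3 to 91.6) and at N2 with 60.5 (45.0 to 79.5), and chromosome 22 at N1 with 11.3 (4.90 to 22.4). On chromosome 20, 17 of the 60 interactions at C0 and 5 of the 51 at N2 lay within 20 kb of its right end. Chromosome 27 was sparsest at C0 with 26.8 per Mb (15.6 to 42.9) and at N2 with 29.9 (18.0 to 46.7), and chromosome 28 had 0 at N1, where 25 were listed at C0 and 23 at N2. By number, chromosome 3 led at C0 with 94 and at N2 with 89, and chromosome 7 at N1 with 11. Over the 30 chromosomes, the rank correlation of the densities was 0.618 between C0 and N2 and -0.06 between N1 and each of the others. These points share the pooled library and the bins that could be used, and at N1 rest on at most 11 interactions each. In C0, N1 and N2, chromosome 23 held 33, 6 and 26 interactions, chromosome 26 held 32, 3 and 31, and chromosome 30 held 23, 3 and 17.

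**Figure D4:**
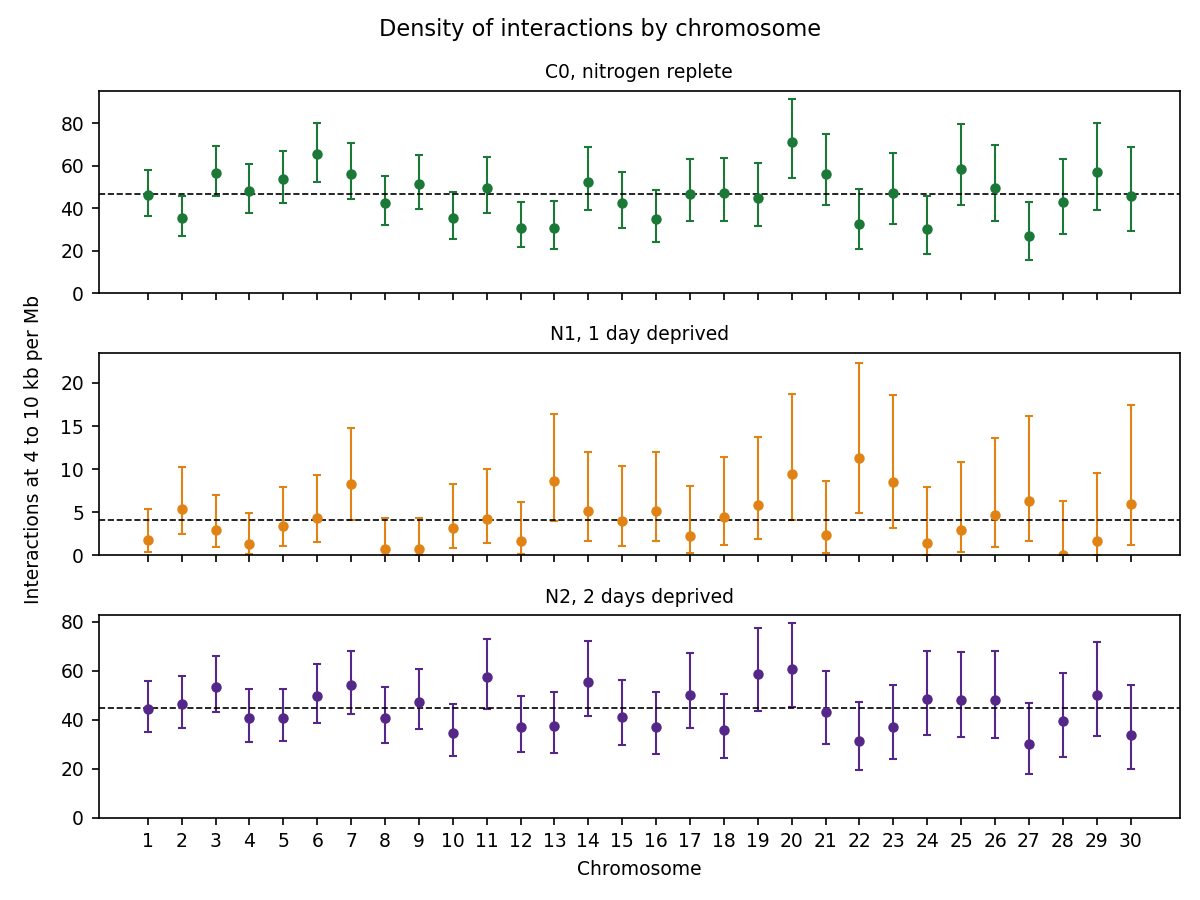
Interactions at 4 to 10 kb per Mb on each of the 30 chromosomes at C0, N1 and N2, with exact 95% Poisson intervals and a dashed line at the value of the whole genome (46.6, 4.09 and 44.9 per Mb). The vertical scales differ; chromosome 20 is the highest in the C0 and N2 panels, chromosome 22 in the N1 panel.

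In windows of 50 kb the interactions were spread widely, with at least 1 in 484, 105 and 447 of the 630 windows in C0, N1 and N2. The tenth of the windows with the most interactions held 31.5% of them at C0 and 34.6% at N2. The fullest window at C0, from 800001 to 850000 at the right end of chromosome 20, held 18, 0 and 6 in C0, N1 and N2. The window from 650001 to 700000 of chromosome 14 held 17, 0 and 15 and was among the 3 fullest of both C0 and N2. From 350001 to 400000 of chromosome 11 there were 4, 1 and 15, and from 450001 to 500000 of chromosome 20, which holds that chain of 3 bins, there were 9, 2 and 15. The window with the most at N1, from 200001 to 250000 of chromosome 23, held 5, 4 and 6. The rank correlation over windows was 0.495 for C0 with N2, 0.149 for C0 with N1 and 0.193 for N1 with N2.

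Most interactions were single bin pairs and not parts of a larger patch. When pairs whose bins were both at most 1 bin apart were joined, 1159 of 1278 clusters at C0 held 1 pair, 114 of 120 at N1 and 1045 of 1195 at N2, and the largest held 6 pairs at C0 and N2 and 2 at N1. Some of the largest clusters were stripes, in which 1 bin met a run of consecutive bins, and others spanned several bins on both sides. At C0 the bin at 333001 of chromosome 3 met 6 neighbouring bins from 324001 to 330000, with 328 contacts in all and 3.25 to 4.69 times expected, and 5 of these pairs were listed at N2 too. At N2 the bin at 646001 of chromosome 25 met 6 bins from 636001 to 642000, with 184 contacts, and 4 of these pairs were listed at C0. Also at N2, the bin at 343001 of chromosome 21 met 5 bins from 347001 to 352000, at 7.77 to 9.82 times expected, 4 of them listed at C0. None of the pairs in these 3 stripes was listed at N1.

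Interactions often shared a bin with another one, 72.6%, 26.2% and 80.5% of them in C0, N1 and N2. The bin at 343001 of chromosome 21 had the most partners within the range, 8 at both C0 and N2, 4 to the left and 4 to the right at C0 and 3 and 5 at N2. Its pairs at N2 ranged from 7.60 to 13.4 times expected, and its bias factor was low, 0.683 at C0 and 0.564 at N2. A bin of chromosome 5, at 1001001, also had 8 partners at C0 and 2 at N2, and that at 156001 of chromosome 25 had 7 at C0 and 0 at N2. There were 162 bins with 3 or more partners at C0 and 192 at N2, and 141 and 164 of them had partners on both sides. About the same part of the bins of these interactions also took part in interactions at 2 to 3 kb in C0 and N2, 48.7% of 2100 and 51.7% of 1908, while 27.0% of 233 did at N1.

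The bias factors of the bins differed between groups. Bins in interactions at 4 to 10 kb had a median factor of 1.03 at C0, 0.836 at N1 and 1.19 at N2, and 17.6%, 8.58% and 29.5% of them were above 1.5. The product of both factors, which multiplies the expected count, had a median of 1.03, 0.732 and 1.39. The other cis-interactions of the same group had 1.05, 0.734 and 1.29, so this difference between groups was common to the cis lists. Bins that took part in other cis-interactions only had median factors of 1.04, 0.850 and 1.05, which at N2 lay below the 1.19 of the bins at 4 to 10 kb. In 912 bins with interactions at 4 to 10 kb in both C0 and N2, the factor at N2 was a median 0.955 of that at C0. In 117 bins with such interactions in both C0 and N1, the factor at N1 was a median 0.699 of that at C0 and higher in 8.

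**Figure D5:**
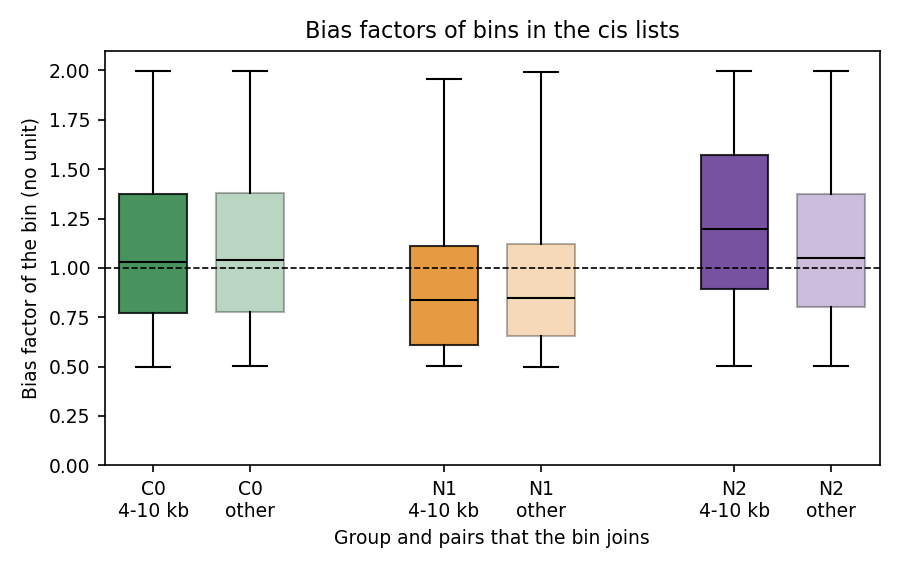
Bias factor (no unit, 1 is an average bin) of the bins in interactions at 4 to 10 kb and of bins in other cis-interactions only, for C0, N1 and N2. Boxes are the quartiles with the median as a line and whiskers the lowest and highest value; the medians at 4 to 10 kb are 1.03, 0.836 and 1.19.

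Contacts and bias moved together, as the definition of the factor implies. The rank correlation of the contact count with the product of the factors was 0.810 at C0 (1438 pairs), 0.729 at N1 (126) and 0.712 at N2 (1384), and that of the ratio to expected with the product was -0.774, -0.812 and -0.628. The points share the factors, which enter the expected count. As the expected count rises, the listing threshold rises in contacts and falls as a ratio to expected, so the listing bears on both correlations.

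In each group 1 value of the bias factor recurred in many bins, 0.955 in 21 bins at C0, 0.955 in 38 bins at N1 and 0.963 in 45 bins at N2, whereas any other value was carried by at most 2 bins. It touched 14, 4 and 59 of the interactions of C0, N1 and N2, with a median ratio to expected of 4.59 at N2 against 3.71 in the others. What the deposited value stands for is not given in the sources used here. Of the pairs named, it was carried by a bin of the pair with the largest change on chromosome 28. The 12 pairs shared by C0 and N2 that joined such a bin had a median ratio of 2.12 against expected and 1.69 on the depth scale, and 7 of them were among the 57 with at least a 2-fold change. Without these 12 pairs, 442 of 452 were higher at N2 against expected, with a median of 1.48, and 228 of 452 on the depth scale, with a median of 1.00.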

How the data were processed

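By the study's methods, the authors filtered Hi-C reads with Trimmomatic, mapped them to version V2 of the IMET1 genome with the ICE package, pooled both replicates of a group and called interactions with Fit-Hi-C; the submitters' notes also name HiC-Pro and edgeR. The methods name 10-kb bins for this step and elsewhere a lowest cis distance of 4 kb in HiC-Pro, which equals the lower edge of the range here, while the deposited lists hold 1-kb bins from 2 kb apart. Labels and methods differ in the optical density at transfer.

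The deposited contact counts are raw read pairs, not scaled for depth. The deposited p-values and q-values come from the authors' Fit-Hi-C run. They were not used as tests between groups. The expected counts, listing thresholds and bounds rest on the p-values, however, and a recalculation used a stricter q-value. The deposited bias factor of each bin is a score between 0.50 and 2.00. Trans lists and the authors' lists of shared interactions were not used here.

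Expected counts were worked back from the p-values by solving for the Poisson mean that gives each contact count its listed p (scipy 1.17.1, numpy 2.4.6, pandas 2.3.3, Python 3.11.15; matplotlib 3.10.9). Divided by both factors, they varied by at most 0.000864% among pairs at the same distance in a group, and the recovery was tested on simulated data. Depth-scaled contacts are counts per 1000000 cis valid read pairs of the study's library statistics, 15856448 at C0, 7035658 at N1 and 11434869 at N2. Intervals are exact Poisson or Clopper-Pearson, and those of ratios take the expected counts as known. Chromosome ends are the first and last listed positions.

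Members and rules were chosen with earlier results of these data known. Pairs named were the 5 highest in each group by count and by ratio to expected, 10 of those in all 3 groups, the 5 largest changes from C0 to N2 in each direction, and the 3 fullest windows, clusters and bins, ties included, with the extreme chromosomes and chromosomes 23, 26 and 30; not all are described. Bounds for unlisted pairs, depth-scaled contacts, results without chromosome ends and those without the recurring bias factor were added after values were seen.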

Additional observations from a re-analysis of the deposited data

How the results depend on the processing

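With counts of listed pairs scaled to the expected counts of N1, 41 interactions remained at C0 (11.8% of its cis list, median ratio to expected 4.15) and 536 at N2 (median 4.41), and C0 shared 8 pairs with N1 and 25 with N2. With a q-value under 0.001 there were 938 interactions at C0 (0.438% of possible pairs, median ratio 3.16) and 66 at N1 (0.0308%, 10.8% of the cis list, median 5.97). N2 then had 1039 interactions (977 to 1104), so that the order of C0 and N2 turned, although the interval of C0 (879 to 1000) overlapped. At N2 these were 0.485% of possible pairs with a median of 3.93, and 27 pairs were shared by C0 and N1 and 26 by N1 and N2. With both bias factors from 0.8 to its reciprocal, 211, 15 and 174 interactions remained at C0, N1 and N2, the share of the list was 10.6% at N1 and 25.4% at N2, the median ratios were 4.19 and 4.11, and 0, 37 and 1 pairs were shared by C0 and N1, C0 and N2, and N1 and N2. From 5 to 10 kb the shares were 23.5%, 8.54% and 20.6% with median ratios of 3.15, 6.05 and 3.91, N1 held 81 interactions, and 25 pairs each were shared by C0 and N1 and by N1 and N2. From 4 to 9 kb the shares were 29.98% at C0 and 25.0% at N2. Matches within 2 bins raised the C0 interactions found at N1 to 70 and the N1 interactions found at N2 to 63. Added after seeing the data, leaving out pairs within 20 kb of the ends gave a share of 34.7% at C0, and pairs listed at both C0 and N2 had a median ratio of 4.43 at N2. Beyond fewer pairs, the cause of these changes was not tested. In 76 other recalculations, values moved less than counting error or 1.5 times, the one without the recurring bias factor among them. No paired analysis was possible because replicates are pooled in the lists, and leaving out a replicate could not be run for the same reason.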
